A study of Arabidopsis thaliana with 6 samples.

Results

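Aliphatic glucosinolate synthesis and the myrosinases were followed in Arabidopsis thaliana inflorescences through 31 loci: 3 MYB regulators, 9 genes of side chain elongation, 10 of the core pathway, 7 of side chain modification and 2 myrosinases. The loci were listed by their known place in the pathway and picked out of the array table by locus name, and all 31 had a value, of 32627 loci measured. All samples were inflorescences of Landsberg erecta (Ler) wild type carrying 35S::SUP-GR, which drives the floral zinc-finger protein SUPERMAN, joined to a glucocorticoid receptor domain that binds the steroid, from a viral promoter that is active in most tissues. The Mock group (3 arrays) received ethanol and the DEX group (3 arrays) 10 µM dexamethasone, which generally lets such a fusion enter the nucleus. In both, plants grown at 22 °C under continuous light had the inflorescence dipped for 1 min with 0.015% Silwet L-77, and buds before flower stage 10 were harvested 4 hours afterwards. The dose is labelled in micrometres, which was taken to mean micromolar. No plants without the transgene and no independent transgenic lines were analysed here, so an effect of DEX itself and one of the fusion protein cannot be told apart.

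Aliphatic glucosinolates are sulfur-rich defence compounds made from methionine. The methionine side chain is first lengthened in cycles that resemble leucine synthesis, the lengthened amino acid is then turned into the glucosinolate core by P450 enzymes, a C-S lyase, a glucosyltransferase and sulfotransferases, and the side chain is finally oxidised and trimmed. Myrosinases are kept in separate cells and release toxic products when tissue is crushed. Accessions differ at the MAM and AOP loci, which set side chain length and end group, and Ler is known for expressing AOP3 rather than AOP2.

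Values are the deposited RMA intensities on a linear scale. Differences are in log2 intensity (DEX minus Mock) and carry limma's standard error (SE) and its adjusted p over all loci, and a gene passed at an adjusted p under 0.05. Array medians over all features ranged from 74.2 to 77.3. The floral regulators LFY, AP1, AP3, PI and AG all lay above the median locus, whose intensity was 72.9, and the 4 seed storage and root markers lay below it. All 5 floral regulators were also below 0 in DEX, with a median difference of -0.28 (-0.27 without DEX replicate 3). LFY, which specifies the flower, differed by -0.82 (SE 0.18, limma adjusted p = 0.251, and 0.0155 with the trended and robust prior described below) and AP1 by -0.28 (SE 0.11). Both were lower with no overlap, where 9.2% of all loci were. Their part in the members' values was not tested. Both mature pollen markers, VGD1 and VGDH1, also lay above the median locus. Of the 31 members, 22 were above that median and 9 below. An intensity says nothing about the level of one gene against another, since probes differ. In whole buds, fewer cells of a type and less RNA per cell cannot be told apart.

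None of the 31 members passed between DEX and Mock, at a background of 0.0521% of loci called (17 of 32627, limma). At an unadjusted p under 0.05, 3 members were higher in DEX, where 4.5% of all loci were, and 0 were lower, where 5.92% were. The DEX and Mock arrays did not overlap for 4 members, all higher in DEX (FMO GS-OX2, AOP2, AOP3 and TGG1), against 8.74% of all loci. No member was lower without overlap, against 9.2% of all loci. The median difference of the members was -0.25, with 22 of 31 below 0, where 49.1% of all loci were, and the median over all loci was 0.005.

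The median depended on which arrays entered it. DEX replicate 3 was the lowest of the 6 arrays for 20 of 31 members, against 16.1% of all loci, and for 7 members it lay more than 2-fold below the lowest of the other 5 arrays, against 0.493% of all loci. Without it the median difference of the members was 0.02, with 15 of 31 below 0. Leaving out DEX replicate 3 alone keeps Mock replicate 3, which was also low for most members. With replicate 3 left out of both groups the median was -0.14, with 23 of 31 below 0. Replicate 1 was the highest and replicate 3 the lowest array within both groups for 15 of 31 members, where 3.21% of all loci had this arrangement. The median deviation from each member's own mean was 0.34 on Mock replicate 1 and 0.33 on DEX replicate 1. It was -0.14 on Mock replicate 3 and -0.53 on DEX replicate 3, on the log2 scale. Values of the members that move with these arrays are therefore given by array. What sets the arrays apart was not tested.

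**Figure D1:**
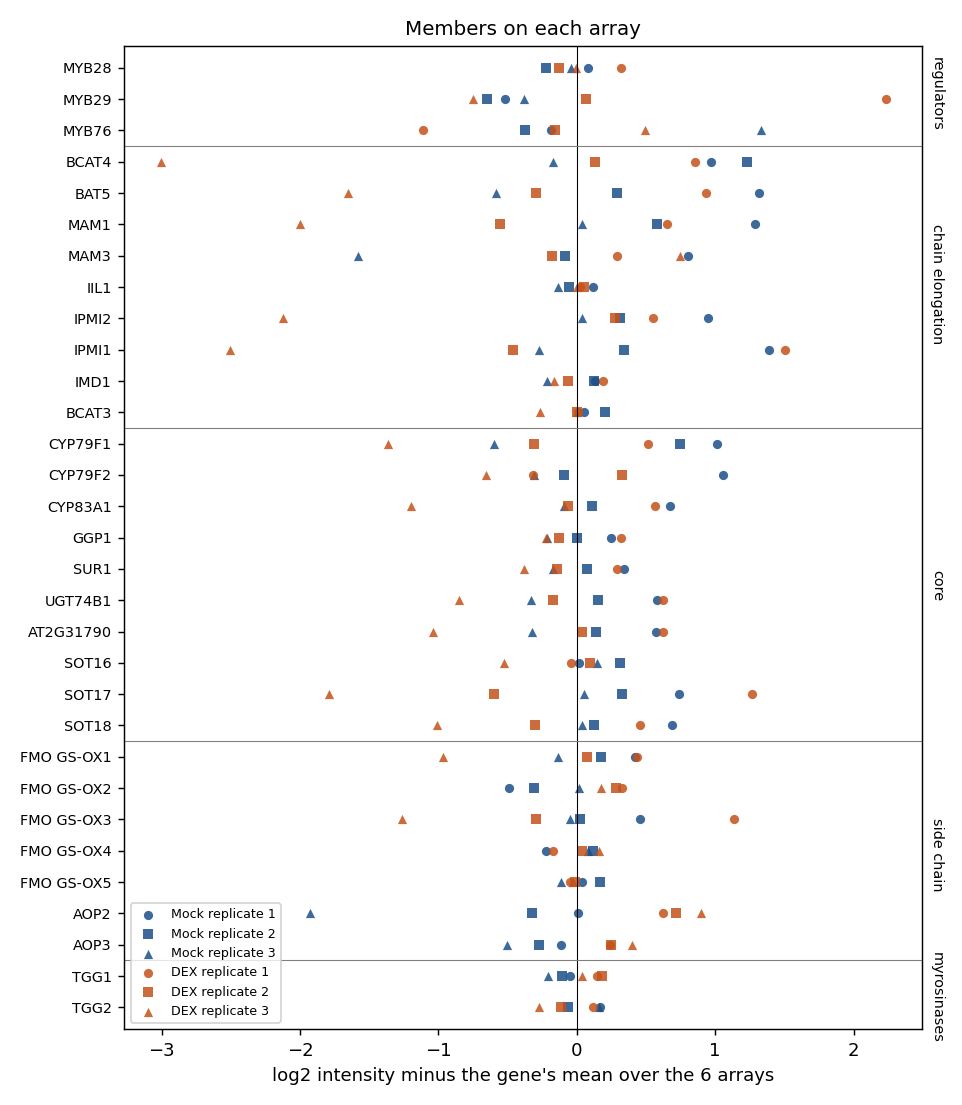
Each row is a member and each point an array, placed by its log2 intensity minus the member's mean over the 6 arrays (blue for Mock, orange for DEX; circle, square and triangle for replicates 1, 2 and 3). The orange triangles of DEX replicate 3 lie leftmost for 20 of 31 members, while AOP2 and AOP3 have all 3 DEX arrays to the right of all 3 Mock arrays.

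MYB28 (AT5G61420), the main activator of aliphatic glucosinolate genes, had intensities of 330, 268 and 304 in Mock and 389, 286 and 312 in DEX. The groups overlapped, and MYB28 was close to its own mean on DEX replicate 3, where most enzymes of the pathway were low. The difference was 0.12 (SE 0.16, limma adjusted p = 0.841), with a 95% interval from -0.28 to 0.52. A second, dim feature of MYB28 read 13.5, 12.1 and 5.93 in Mock and 17.02, 5.47 and 3.31 in DEX, a difference of -0.55 (SE 0.67), and was lowest on replicate 3 in both groups.

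MYB29 (AT5G07690), another activator of the same subgroup, was dim, at 3.15, 2.87 and 3.46 in Mock and 21.2, 4.72 and 2.68 in DEX. DEX replicate 1 alone stood out. MYB76 (AT5G07700), the gene next to MYB29 and also an activator of the pathway, was dim too, at 5.58, 4.89 and 15.9 in Mock and 2.94, 5.67 and 8.94 in DEX. The differences of 1.03 (SE 0.76) for MYB29 and -0.51 (SE 0.61) for MYB76 were within the spread between arrays.

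Side chain elongation showed the widest spread between arrays among the steps, with a median within-group SD of 1.04 on the log2 scale, against 0.256 over all loci. Of its 9 genes, 7 were below 0 in DEX and the median difference was -0.68. Without DEX replicate 3 that median was -0.02 and 5 of 9 were below 0, and without replicate 3 of both groups it was -0.30 and 8 of 9 were. BCAT4 (AT3G19710), the aminotransferase that takes methionine into the cycle, read 41.6, 49.7 and 18.9 in Mock and 38.3, 23.2 and 2.64 in DEX. The single low value on DEX replicate 3 lay 12.2-fold under the geometric mean of the other 5 arrays. The difference of -1.35 (SE 1.06) went to -0.18 (SE 0.51) without that array, and to -0.61 without replicate 3 of both groups.

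BAT5 (AT4G12030) carries the resulting keto acid into the plastid. Its intensities were 254, 124 and 67.8 in Mock and 194, 82.9 and 32.4 in DEX, so the replicate 1 arrays were high and the replicate 3 arrays low in both groups. The difference of BAT5 was -0.68 (SE 0.79), and -0.02 (SE 0.69) without DEX replicate 3. Without replicate 3 of both groups it was -0.485. MAM1 (AT5G23010), which condenses the keto acid with an acetyl unit, read 70.3, 43.1 and 29.6 in Mock and 45.3, 19.6 and 7.20 in DEX. It had the same arrangement and the second-lowest difference of the members, -1.27 (SE 0.72, limma adjusted p = 0.606), which was -0.59 (SE 0.53) without DEX replicate 3. MAM3 (AT5G23020), the neighbouring synthase for longer chains, was dim, between 0.940 and 4.90 on all arrays, with a difference of 0.57 (SE 0.63). Ler is known to carry a closely related MAM gene where the reference accession has MAM1, and which transcript the MAM1 feature reads was not tested.

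The isomerase of the cycle has 1 large subunit and several small ones, and these differed in their spread. The large subunit IIL1 (AT4G13430), which also serves leucine synthesis, was steady at 1690.2, 1502 and 1421 in Mock and 1585, 1616 and 1563 in DEX. Its difference was 0.05 (SE 0.11) with a 95% interval from -0.23 to 0.33. The small subunit IPMI2 (AT2G43100) read 595, 381 and 316 in Mock and 450.4, 372 and 70.4 in DEX. The small subunit IPMI1 (AT3G58990) read 220.0, 107 and 69.7 in Mock and 239, 61.1 and 14.8 in DEX, a 16.1-fold range among the DEX arrays. The difference of IPMI1 turned from -0.97 (SE 1.06) to 0.04 (SE 0.78) without DEX replicate 3, and that of IPMI2 went from -0.87 (SE 0.76) to -0.02 (SE 0.31). Without replicate 3 of both groups they were -0.34 and -0.22.

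IMD1 (AT5G14200), the dehydrogenase that closes the cycle, was steady at 464, 463 and 366 in Mock and 484, 405 and 379 in DEX, with a difference of -0.03 (SE 0.16). BCAT3 (AT3G49680), a plastid aminotransferase that also acts on other amino acids, was steady on its brighter feature. That feature read 582, 646 and 561 in Mock and 563, 563 and 465 in DEX, with a difference of -0.17 (SE 0.13). The other BCAT3 feature, nearly as bright, read 586, 546 and 530 in Mock and 624, 559 and 384 in DEX. Its difference was -0.11 (SE 0.20), and replicate 1 was its highest and replicate 3 its lowest array within both groups. DEX replicate 3 was thus more than 2-fold below all other arrays for 5 elongation genes, BCAT4, BAT5, MAM1, IPMI2 and IPMI1. It was not for MAM3, IIL1, IMD1 and BCAT3. Replicate 1 was the highest and replicate 3 the lowest array within both groups for BAT5, MAM1, IPMI2, IPMI1 and IMD1, but not for BCAT4.

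**Figure D2:**
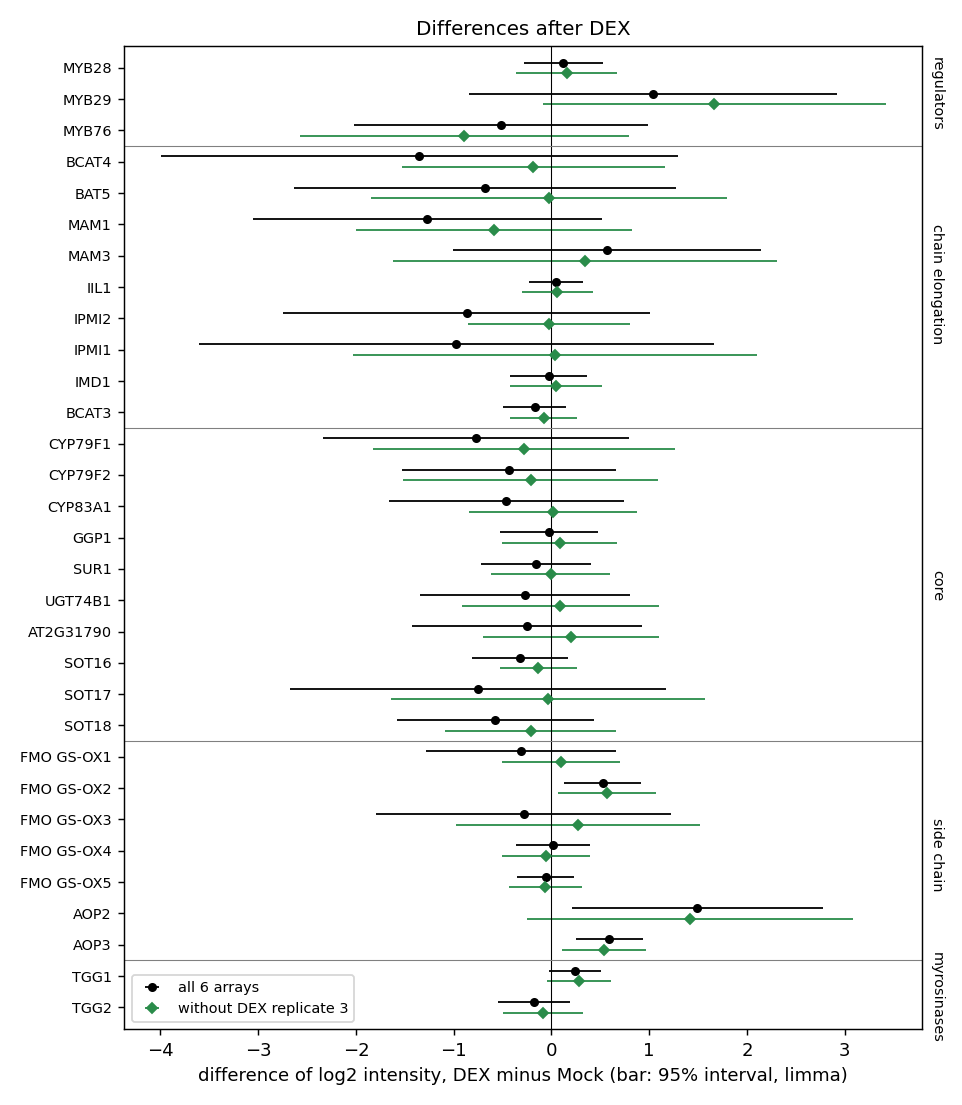
Difference of log2 intensity, DEX minus Mock, for each member with its 95% interval from limma, over all 6 arrays (black circles) and without DEX replicate 3 (green diamonds). Intervals of the elongation genes are wide and 7 of 9 black circles there lie left of 0, while the green diamonds of BCAT4, BAT5, IPMI2 and IPMI1 lie closer to 0. The intervals of FMO GS-OX2, AOP2 and AOP3 lie right of 0 over all 6 arrays, before adjustment over all loci.

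In the core pathway all 10 genes were below 0 in DEX, with a median of -0.38, and DEX replicate 3 was the lowest array for all 10. Without that array the median was -0.02 and 6 of 10 were below 0, and without replicate 3 of both groups it was -0.14 and all 10 were. CYP79F1 (AT1G16410), which turns chain-elongated methionine into an aldoxime, was dim, at 16.1, 13.4 and 5.25 in Mock and 11.4, 6.43 and 3.09 in DEX. Its neighbour CYP79F2 (AT1G16400), which acts on long-chain substrates, read 74.2, 33.5 and 28.8 in Mock and 28.7, 44.8 and 22.6 in DEX. Their groups overlapped, with differences of -0.77 (SE 0.63) for CYP79F1 and -0.43 (SE 0.44) for CYP79F2. These neighbours are close copies, and whether their features read each other's transcript was not tested.

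CYP83A1 (AT4G13770) oxidises the aldoxime. Its intensities were 1214, 821 and 711 in Mock and 1121, 727 and 331 in DEX. Replicate 1 was high in both groups and DEX replicate 3 lay 2.7-fold under the geometric mean of the other arrays. The difference was -0.46 (SE 0.48), and 0.02 (SE 0.32) without DEX replicate 3. Without replicate 3 of both groups it was -0.145.

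The enzymes that follow are shared with the indole glucosinolates. GGP1 (AT4G30530) trims the glutathione conjugate, and SUR1 (AT2G20610) is the C-S lyase that frees the thiol. GGP1 read 712, 599 and 518 in Mock and 749, 547 and 515 in DEX, and SUR1 read 562, 465 and 392 in Mock and 540.3, 401 and 339.7 in DEX. Both were highest on the replicate 1 arrays, with differences of -0.02 (SE 0.20) and -0.16 (SE 0.23). A second, dimmer feature of SUR1 read 45.6, 97.1 and 75.2 in Mock and 106, 80.9 and 43.5 in DEX. Its difference was 0.06 (SE 0.43), and Mock replicate 1 was its lowest Mock array.

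UGT74B1 (AT1G24100) adds the glucose. It read 434, 323 and 230.4 in Mock and 447, 257 and 161 in DEX, a difference of -0.27 (SE 0.43). AT2G31790, listed with the core genes and without a symbol in the RefSeq table, read 357, 264 and 192 in Mock and 372, 246 and 117 in DEX, a difference of -0.25 (SE 0.47). In both genes DEX replicate 1 was the highest and DEX replicate 3 the lowest of the 6 arrays.

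The 3 sulfotransferases make the final core step. SOT18 (AT1G74090), with a preference for aliphatic substrates, read 693, 469 and 441 in Mock and 590, 347 and 213 in DEX. SOT17 (AT1G18590), of the same preference, read 43.3, 32.6 and 26.9 in Mock and 62.5, 17.1 and 7.499 in DEX. SOT16 (AT1G74100), the neighbour of SOT18 and known for indole substrates, read 289, 356 and 317 in Mock and 278, 305 and 198 in DEX. Replicate 1 was the highest array of both groups for SOT17 and SOT18 and of neither group for SOT16. The differences were -0.75 (SE 0.77) for SOT17, -0.57 (SE 0.41) for SOT18 and -0.32 (SE 0.20) for SOT16.

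Side chain modification was mixed. Of its 7 genes, 4 were above 0 and 3 below, with a median of 0.02, and of 0.28 without DEX replicate 3. The FMO GS-OX enzymes oxidise the sulfur of the side chain. FMO GS-OX1 (AT1G65860) read 114, 96.1 and 77.6 in Mock and 115, 89.5 and 43.4 in DEX, and FMO GS-OX3 (AT1G62560) read 144, 107 and 102 in Mock and 231, 85.5 and 43.8 in DEX. Both shared the low value on DEX replicate 3, and their differences of -0.31 (SE 0.39) and -0.29 (SE 0.61) became 0.10 (SE 0.23) and 0.28 (SE 0.47) without it. Without replicate 3 of both groups they were -0.05 and 0.18.

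FMO GS-OX2 (AT1G62540), FMO GS-OX3 and FMO GS-OX4 (AT1G62570) lie in 1 short stretch of chromosome 1, and their arrays differed. FMO GS-OX2 read 51.9, 59.1 and 73.8 in Mock and 91.8, 88.9 and 82.3 in DEX, with no overlap. Its difference was 0.52 (SE 0.16, limma adjusted p = 0.365; exact permutation p = 0.1, two-sided, the smallest that 3 against 3 arrays allow). Every gene without overlap has this permutation p, so it adds nothing to the lack of overlap here or for AOP3, AOP2 and TGG1. FMO GS-OX4 was steady at 244, 308 and 300.2 in Mock and 253, 292 and 317 in DEX, with a difference of 0.02 (SE 0.15). FMO GS-OX5 (AT1G12140), which is known for long side chains, was steady on both of its features, and the brighter one read 458, 501 and 411 in Mock and 430.1, 442 and 438 in DEX, a difference of -0.06 (SE 0.12).

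AOP3 (AT4G03050), which turns the methylsulfinyl side chain into a hydroxyalkyl one, had the smallest p of the members. Its brighter feature read 725, 650.1 and 555 in Mock and 928, 933 and 1034 in DEX. All 3 DEX arrays were above all 3 Mock arrays, and DEX replicate 3, the low array of the synthesis genes, was here the highest. Mean log2 intensities of 9.32 ± 0.19 (SD, n = 3) in Mock and 9.91 ± 0.09 (SD, n = 3) in DEX give a difference of 0.59 (SE 0.14), or 1.51-fold. It did not pass over all loci (limma adjusted p = 0.262; exact permutation p = 0.1, two-sided). With limma's trended and robust prior, which lets the expected variance follow intensity, it was the 1 member of 31 that passed (adjusted p = 0.0115), at a background of 1.32% of loci called and 0.257% called higher. Without DEX replicate 3 or Mock replicate 3 that call was lost, at differences of 0.54 (limma adjusted p = 0.058, with 0.941% of loci called) and 0.49 (limma adjusted p = 0.0515).

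A second AOP3 feature was dim, at 9.79, 2.14 and 5.11 in Mock and 13.6, 10.4 and 18.1 in DEX, again without overlap, a difference of 1.53 (SE 0.57). The mean of both features on the log2 scale differed by 1.06 (SE 0.32, limma adjusted p = 0.365). AOP2 (AT4G03060), the adjacent gene, which makes alkenyl side chains where it is active and is a transcribed pseudogene in the RefSeq annotation of the reference accession, read 13.5, 10.8 and 3.54 in Mock and 20.7, 22.1 and 25.1 in DEX. The difference of AOP2 was 1.49 (SE 0.52, limma adjusted p = 0.417; exact permutation p = 0.1, two-sided). It was 0.63 with 16 added to each intensity, and 0.90 without Mock replicate 3, its lowest array. AOP1, the third gene of this family beside them, differed by -0.16 (SE 0.13). Whether the AOP2 and AOP3 features read each other's transcript was not tested.

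**Figure D3:**
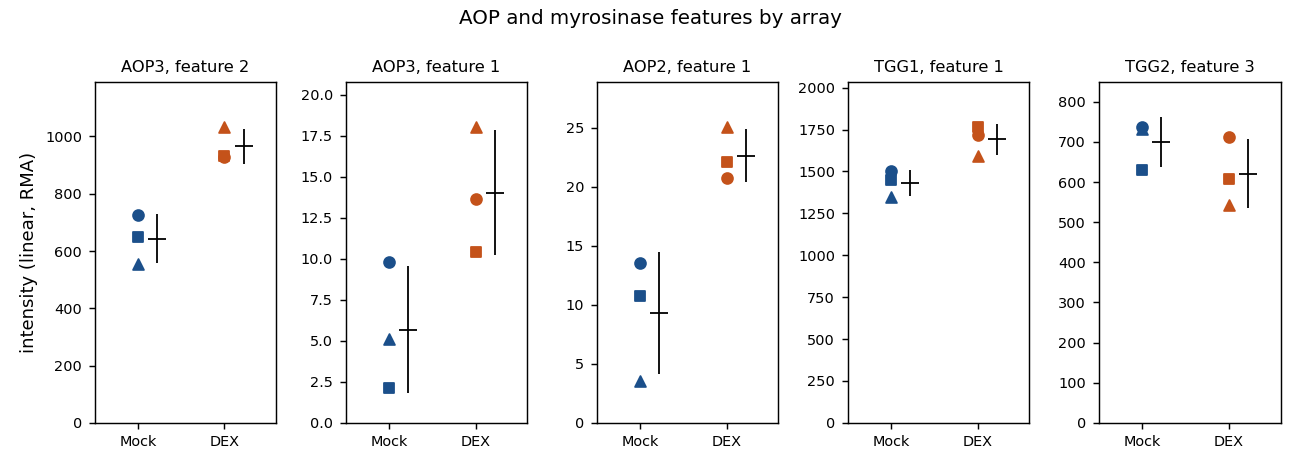
Linear intensity of 2 features of AOP3, of AOP2, of TGG1 and of TGG2 on each array (circle, square and triangle for replicates 1, 2 and 3), with the group mean and SD beside the points (n = 3). Axes start at 0 and differ between panels. All 3 DEX points lie above all 3 Mock points for both AOP3 features, AOP2 and TGG1, and the groups overlap for TGG2.

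The myrosinases TGG1 (AT5G26000) and TGG2 (AT5G25980) cleave glucosinolates. Within groups TGG1 varied little, with an SD of 0.079 on the log2 scale. The brighter TGG2 feature had an SD of 0.167, against a median of 0.138 for loci above the median intensity. TGG1 read 1501, 1446 and 1346 in Mock and 1717, 1766 and 1591 in DEX. The groups did not overlap, but the gap was narrow, from 1501 on Mock replicate 1 to 1591 on DEX replicate 3. The difference was 0.24 (SE 0.11, limma adjusted p = 0.519; exact permutation p = 0.1, two-sided). The brighter TGG2 feature read 738, 629 and 733 in Mock and 713, 607 and 543 in DEX, a difference of -0.18 (SE 0.15). The other TGG2 feature read 377, 472 and 542 in Mock and 468, 465 and 449.9 in DEX, and differed by 0.01 (SE 0.16).

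In neither myrosinase was replicate 1 the highest and replicate 3 the lowest array of both groups, although DEX replicate 3 was the lowest of the 6 arrays for the brighter TGG2 feature. FAMA, the regulator of myrosin cell and guard cell fate, read 168, 209.9 and 177 in Mock and 156, 183 and 169 in DEX, a difference of -0.12 (SE 0.14). SPCH, which starts the stomatal lineage, was lower on all 3 DEX arrays, at 459, 411 and 412 against 276, 226 and 237, a difference of -0.80 (SE 0.13, limma adjusted p = 0.141, and 0.0031 with the trended and robust prior). With 16 added to each intensity the difference of SPCH was -0.76 (limma adjusted p = 0.0321). Of the 4 stomatal and myrosin lineage markers all were below 0, and their part in the myrosinase values was not tested.

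Of 49 genes in 8 lists of linked pathways, 0 passed (limma), and at an unadjusted p under 0.05 1 was higher, where 4.5% of all loci were, and 4 were lower, where 5.92% were. With the trended and robust prior 2 were lower, MYC2 and TGG3, where 1.06% of all loci were. MYC2, a jasmonate-regulated helix-loop-helix factor that works with the MYB activators on glucosinolate genes, read 426, 453 and 402 in Mock and 229, 248 and 208 in DEX. Its difference was -0.91 (SE 0.12, limma adjusted p = 0.104, and 0.00132 with the trended and robust prior), and it was -0.84 without DEX replicate 3. With 16 added to each intensity the difference of MYC2 was -0.86 (limma adjusted p = 0.0213). Its relatives MYC3 and MYC4 were not lower on all DEX arrays, and MYC4 differed by 0.26 (SE 0.17). TGG3, a myrosinase gene known as degenerate in the reference accession, was dim, at 4.75, 11.3 and 5.13 in Mock and 1.24, 0.939 and 1.93 in DEX, a difference of -2.31 (SE 0.43, limma adjusted p = 0.188, and 0.0492 with the trended and robust prior). With 16 added to each intensity the difference of TGG3 was -0.40 (limma adjusted p = 0.241).

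Of the 6 genes in the indole branch list, DEX replicate 3 was the lowest array for 4 and the highest for 1. CYP83B1, the indole counterpart of CYP83A1, read 530, 466 and 239 in Mock and 454, 267 and 71.5 in DEX. CYP79B3, which makes the indole aldoxime, read 259.8, 233 and 133 in Mock and 257, 103 and 27.3 in DEX, and the indole regulator MYB34 read 46.7, 19.8 and 49.1 in Mock and 23.0, 27.6 and 2.76 in DEX. DEX replicate 3 was more than 2-fold below all other arrays for 4 of the 6 genes, and the list's median difference of -0.74 was -0.16 without it. Within Mock, CYP83B1 and CYP79B3 were also lowest on replicate 3.

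Genes that supply sulfur and glutathione differed among themselves. APK2, a kinase that makes the sulfate donor for the sulfotransferases, read 300.4, 182 and 123 in Mock and 205, 73.4 and 21.7 in DEX. Its difference of -1.45 (SE 0.85) was -0.62 without DEX replicate 3. The glutathione transferase GSTU20 was steadier, at -0.15 (SE 0.19). The peptidase GGP3, a relative of GGP1, was at 0.11 (SE 0.15) and was highest on DEX replicate 3. GSH1, the first enzyme of glutathione synthesis, ranged only from 1545 to 1694 over the 6 arrays.

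The leucine pathway paralogs were steady. IPMS2, IPMS1 and IMD2 differed by -0.18 (SE 0.14), -0.10 (SE 0.18) and 0.11 (SE 0.11), and the median within-group SD of the 5 genes was 0.099. Among other side chain genes, 5 of 6 were below the median locus, and AT1G12130, at 1.82, 1.51 and 1.10 in Mock and 3.04, 3.67 and 2.20 in DEX, was the 1 linked gene with an unadjusted p under 0.05 that was higher in DEX. The glucosinolate importers GTR1 and GTR2 differed by -0.26 (SE 0.13) and 0.15 (SE 0.19). Of the breakdown partners, ESP, which steers hydrolysis to epithionitriles and nitriles, differed by 0.29 (SE 0.14), and NSP1, a nitrile specifier, by -0.57 (SE 0.25, and -0.32 without DEX replicate 3).

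Jasmonate genes, which respond to wounding along with glucosinolate genes, were partly low on the same array. DEX replicate 3 was the lowest array for 5 of the 7, with a list median deviation of -0.45. In DEX 5 of the 7 were below 0 and 2 above, with a median difference of -0.21. Without DEX replicate 3 that median was 0.01, with 3 of 7 below 0. The 3 genes with the smallest p were all lower in DEX. AOS, an enzyme of jasmonate synthesis, read 59.4, 70.8 and 34.3 in Mock and 29.3, 25.4 and 15.9 in DEX, a difference of -1.20 (SE 0.36, limma adjusted p = 0.356). OPR3, a later step, differed by -0.72 (SE 0.24), or -0.48 without DEX replicate 3, and JAZ10, a repressor, by -0.21 (SE 0.10). The phloem markers SUC2, APL and SEOR1 were also lower on all 3 DEX arrays without overlap, where 9.2% of all loci were. Their differences were -0.77 (SE 0.18), -0.30 (SE 0.14) and -0.17 (SE 0.10). SUC2 had a limma adjusted p of 0.265, and of 0.0103 with the trended and robust prior. Without DEX replicate 3 SUC2 was at -0.60, APL at -0.18 and SEOR1 at -0.19. Vascular tissue is a known site of glucosinolate enzyme expression, and the part of these 3 markers in the values above was not tested.

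**Figure D4:**
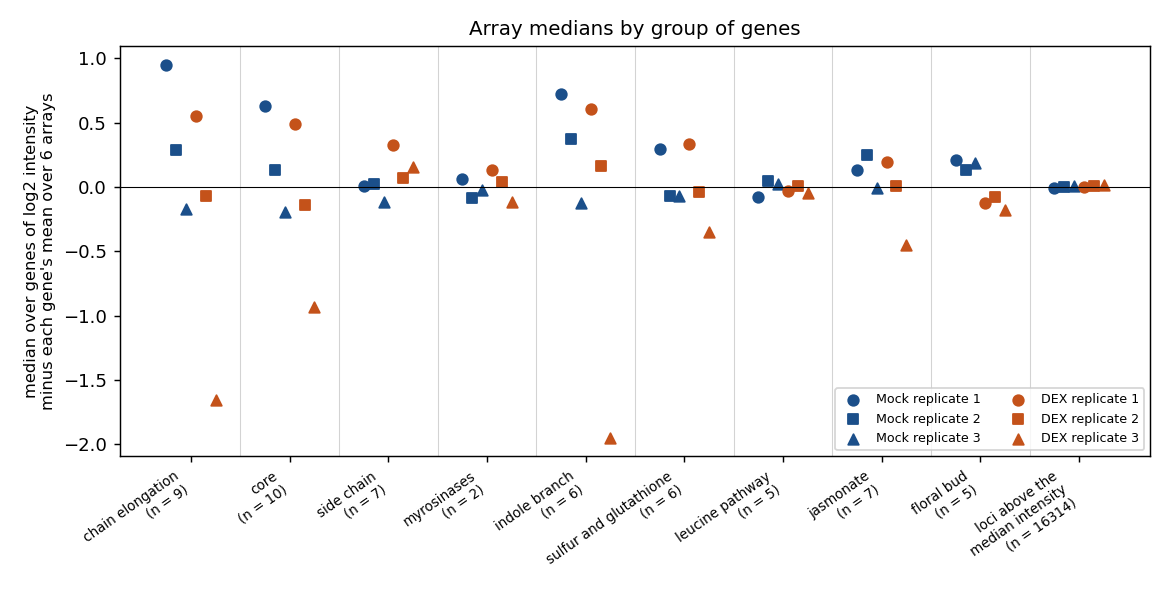
For each group of genes, the median over its genes of log2 intensity minus the gene's mean over the 6 arrays is shown for every array (blue for Mock, orange for DEX; circle, square and triangle for replicates 1, 2 and 3). DEX replicate 3 lies at -1.65 for chain elongation, -0.93 for the core and -1.95 for the indole branch, and near 0 for the leucine pathway and for the 16314 loci at or above the median intensity.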

How the data were processed

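Arabidopsis inflorescence RNA was labelled with Cy3 and hybridised to NimbleGen arrays, per the labels. The authors deposited RMA values, per the submitters' processing notes, as linear intensity between 0.482 and 3642.22. RMA's version was not given in the sources used here. Of 39640 rows, 2522 held no value, which left 37118 features. Intensities were turned to log2 without a pseudocount, and the brightest feature stood for each of 32627 loci. DEX was compared with Mock, 3 arrays each, with limma 3.58.1 in R 4.3.3 (default prior, two-sided, no filter), adjusted by Benjamini-Hochberg over all loci. The number of arrays limits the precision, and p-values measure the spread between these samples, since nothing says that they came from separate plantings. Fits were run on simulated data, with arrays drawn independently and changes placed only in loci above the median intensity. The simulated variance followed intensity, as the trended prior assumes, so the counts that follow cannot rank the priors. The default prior recovered 38 of 100 changes of 1 log2 unit and 93 of 100 changes of 2, with 11 false calls. The trended and robust prior recovered 91 and 100, with 6 false calls. Names come from the RefSeq table of TAIR10.1, which held all 31 members. All members were named, and from a linked list up to 3 genes with the smallest p; SPCH, FAMA, the other marker genes, MYC3 and GSH1 were named after their values were seen. The members and lists were chosen with earlier results of these data known. Alternatives covered the pseudocount, dim loci, prior, normalization, features, replicate block and left-out arrays. Sequences were not used here.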

Additional observations from a re-analysis of the deposited data

How the results depend on the processing

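Arrays give no depth, and dim members such as MYB29, MYB76, MAM3, CYP79F1 and AOP2 have differences that shrink when 16 is added to each intensity. The number of members called was 0 with limma's default prior under every alternative run with that prior, leaving out each array included. It was 1, AOP3, with the trended and robust prior, and also with that prior and the replicate block, which was added after the data were seen. With that prior and each array left out in turn it was 0 to 1. The median difference of the members was -0.254 and lay between -0.344 and 0.018 as each array was left out, above 0 only without DEX replicate 3. It was -0.136 without replicate 3 of both groups, an alternative added after the data were seen, which called 0 genes and 0 members. The other alternatives kept it between -0.268 and -0.174. The count of genes called was 17. It was 204 with 16 added, 105 without the dimmest 25% of loci, 282 without loci below the median, 96 at an adjusted p under 0.1 and 431 with the trended and robust prior. It was 0 with the fixed replicate block, and 750 with that block and the trended and robust prior. Without any 1 array it was 0. Under limma's trended prior these counts were 303, 226 and 307 without DEX replicates 1, 2 and 3 and 244, 314 and 260 without Mock replicates 1, 2 and 3. Same-numbered Mock and DEX arrays deviated together by correlations of 0.0277, 0.0634 and 0.0558 over all loci. Over the 16314 loci at or above the median these correlations were 0.107, 0.293 and 0.234. In both sets of loci every array correlated best with its own number, which is a hint from the data and not from the design. The labels do not say that the numbers pair the samples, and the main fit did not pair them. Within same-numbered arrays 11 of 31 members were lower in DEX for all 3 numbers and 5 higher, against 18.1% and 18.1% of all loci. The fixed and random replicate block called 0 members, and no member's difference changes under a fixed block. Standard errors did change under the fixed block, in both directions. That of BAT5 fell from 0.786 to 0.183 (limma adjusted p = 0.407, and 0.0732 with the trended and robust prior). That of CYP79F1 fell from 0.629 to 0.16 (limma adjusted p = 0.36), and that of AOP3 rose from 0.139 to 0.159. The signs of small differences turned in a few settings: GGP1 was 0.009 and IMD1 0.004 with median centring, and MYB28 was -0.215 with the mean of all its features. FMO GS-OX3 was 0.18, FMO GS-OX4 -0.013 and MAM3 -0.304 without replicate 3 of both groups. The median of the regulators was -0.215 with the mean of all features and -0.196 without the dimmest 25% of loci, and that of the side chain genes was -0.022 without loci below the median. As each array was left out these medians lay between -0.005 and 0.216 for the regulators, -0.056 and 0.276 for the side chain genes and -0.026 and 0.099 for the myrosinases, the last also at -0.002 without Mock replicate 2. With 1 array left out the ranges that crossed 0 were -0.63 to 0.203 for AT2G31790, -0.861 to 0.018 for CYP83A1, -0.604 to 0.097 for FMO GS-OX1, -0.924 to 0.276 for FMO GS-OX3, -0.089 to 0.106 for FMO GS-OX4, -0.134 to 0.009 for FMO GS-OX5, -0.188 to 0.096 for GGP1, -0.005 to 0.12 for IIL1, -0.14 to 0.047 for IMD1, -1.97 to 0.036 for IPMI1, -0.073 to 1.118 for MAM3, -0.005 to 0.216 for MYB28, -0.891 to 0.021 for MYB76 and -0.648 to 0.09 for UGT74B1. Within these ranges FMO GS-OX4 was -0.057 and GGP1 0.084 without DEX replicate 3, GGP1 was 0.039 without DEX replicate 2, and IMD1 was 0.031 and 0.029 without Mock replicates 1 and 2. Some differences moved by over 1.5 times. That of AOP3 went to 1.06 with the mean of features, and that of TGG3 to -0.40 with 16 added. With 16 added BCAT4 also went from -1.35 to -0.58, MAM1 from -1.27 to -0.73 and SOT17 from -0.75 to -0.34. For BCAT4, MAM1 and the other low elongation genes the cause of the shift without DEX replicate 3 was not tested.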
